A study of Mus musculus with 11 samples.

Results

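The Ly6 genes of this report are the 11 genes whose name starts with Ly6 among the 7868 genes that the authors listed for AOM/DSS against naive mouse colon: Ly6e, Ly6a, Ly6d, Ly6c1, Ly6m, Ly6c2, Ly6g6c, Ly6i, Ly6k, Ly6a2 and Ly6f. Tumor tissue of 7 AOM/DSS mice and colon tissue of 4 naive mice was profiled by 3′ mRNA sequencing, and each label names 1 biological replicate. All 11 mice were female and wild type. Their labels give no age, and the study states age ranges for its mice in general and for other genotypes put through the same model, all of them young adults when treatment began. AOM/DSS mice received azoxymethane (AOM), which is a carcinogen, once at 10 mg/kg by intraperitoneal injection on day 0. From day 7 they drank 1.5% dextran sodium sulfate (DSS), which injures the colon lining, in 3 cycles, each of 5 days on DSS and 16 days without it, and the colon was collected on day 70. Naive mice were kept untreated over the same time. The table's title speaks of tumor for the AOM/DSS group and of full-thickness colonic tissue for the naive group, while the study's supplement calls the tumors full-thickness. The dissection itself is not described for the RNA samples. The study used this colitis-associated model to ask how enteric glia and macrophages act on each other in colon tumors.

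Every value below is the authors' normalized mean over the mice of a group, and a fold is the AOM/DSS mean divided by the naive mean. Values per mouse and the read total of each library were not in the table used here (the study's methods state only a nominal sequencing depth), so no spread between mice, no interval and no test can be given, and the word higher describes 2 means. The table lists only genes with a deposited p-value of at most 0.05, so a gene that is not listed is not called unchanged, and the listed genes had been selected for a difference. In 3′ libraries a transcript gives reads from its 3′ end whatever its length, so the means of different genes are set side by side with no length correction made here. Whether the authors' normalization holds a length term is not stated, and comparisons between genes assume that it does not. In bulk tissue, fewer cells of a type and less RNA per cell cannot be told apart.

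Ly6 proteins belong to the LY6/uPAR superfamily, small cysteine-rich proteins with a three-finger fold. Most are held on the outer cell surface by a glycosylphosphatidylinositol (GPI) lipid anchor. Many serve as surface markers of blood cells: Ly6a (Sca-1) of stem and progenitor cells, Ly6c of monocytes and Ly6g of neutrophils. In injured mouse colon, Ly6a also marks regenerating epithelium. Most of the genes lie in a single cluster on chromosome 15, a smaller group lies in the class III region of the major histocompatibility complex on chromosome 17, and several are induced by interferons.

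The annotation holds 21 protein-coding genes named Ly6 (RefSeq), 15 on chromosome 15 and 6 on chromosome 17. Of the 15, 10 were listed, and of the 6 only Ly6g6c was. The share of all annotated genes that were listed was not computed. Counts of listed genes, here and in the lists below, therefore cannot be set against such a share. The 10 genes not listed are Ly6g, Ly6g2, Ly6h, Ly6l and Ly6g6g on chromosome 15 and Ly6g5b, Ly6g5c, Ly6g6d, Ly6g6e and Ly6g6f on chromosome 17.

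Sequences are shown for the 4 members on chromosome 15 that had a promoter in the annotation used, and their levels were very different. Of the 11 members, 5 had a promoter (250 bases before to 50 after the start) in the RefSeq table of GRCm38.p6, namely Ly6c1, Ly6c2, Ly6a2, Ly6f and Ly6g6c. The windows on chromosome 15 are chr15:75048788-75049087 for Ly6c1, chr15:75111922-75112221 for Ly6c2 and chr15:75135079-75135378 for Ly6a2, all on the minus strand, and chr15:75268171-75268470 on the plus strand for Ly6f. They are printed 5′ to 3′, and capitals mark bases that differ from Ly6c2, or have no partner in it, within the aligned stretch (for Ly6c2 itself, from Ly6c1).
Ly6c1: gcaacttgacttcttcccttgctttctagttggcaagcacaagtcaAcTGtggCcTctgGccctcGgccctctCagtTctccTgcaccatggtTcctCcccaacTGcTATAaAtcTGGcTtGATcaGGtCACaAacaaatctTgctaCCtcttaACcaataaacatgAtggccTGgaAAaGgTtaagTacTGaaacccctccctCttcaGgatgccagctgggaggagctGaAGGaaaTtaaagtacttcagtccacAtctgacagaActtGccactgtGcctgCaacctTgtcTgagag
Ly6c2: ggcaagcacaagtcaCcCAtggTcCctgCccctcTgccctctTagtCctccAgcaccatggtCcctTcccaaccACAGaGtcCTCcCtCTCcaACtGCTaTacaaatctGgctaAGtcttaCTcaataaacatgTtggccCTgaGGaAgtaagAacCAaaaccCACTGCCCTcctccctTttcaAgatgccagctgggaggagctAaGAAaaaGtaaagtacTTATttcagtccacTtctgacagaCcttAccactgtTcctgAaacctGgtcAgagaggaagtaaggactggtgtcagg
Ly6a2: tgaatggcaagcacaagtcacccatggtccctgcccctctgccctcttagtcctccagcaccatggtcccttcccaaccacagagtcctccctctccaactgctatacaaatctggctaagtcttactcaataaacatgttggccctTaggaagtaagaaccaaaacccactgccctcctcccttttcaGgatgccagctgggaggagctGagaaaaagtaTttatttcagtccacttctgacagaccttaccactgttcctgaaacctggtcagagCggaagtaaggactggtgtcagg
Ly6f: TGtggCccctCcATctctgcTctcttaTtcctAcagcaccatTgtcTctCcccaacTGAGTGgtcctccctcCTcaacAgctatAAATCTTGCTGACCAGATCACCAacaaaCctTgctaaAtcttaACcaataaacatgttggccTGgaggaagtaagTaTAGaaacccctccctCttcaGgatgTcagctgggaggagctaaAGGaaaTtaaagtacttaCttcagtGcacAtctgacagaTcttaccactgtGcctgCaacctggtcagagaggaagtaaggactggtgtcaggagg

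The windows of Ly6a2 and Ly6c2 were identical at 290 of 300 aligned bases (96.7%), while the AOM/DSS mean was 0.577 for Ly6a2 and 67.3 for Ly6c2. Ly6c1 and Ly6c2 matched at 208 of 282 bases (73.8%), Ly6f and Ly6c2 at 229 of 306 (74.8%), and Ly6c1 and Ly6f at 215 of 278 (77.3%). An ETS motif of the PU.1 type, GAGGAAGT, searched on both strands, occurred at 2 places in Ly6c2 (first base at −108 and 27 from the start) and at 2 places in Ly6f (−102 and 24), and in none of Ly6c1, Ly6a2 and Ly6g6c. This motif was chosen after the sequences had been seen, and 3.20% of 32851 promoters hold it. The GAS motif TTCNNNGAA (8.30% of promoters), the core of the interferon-stimulated response element, ISRE (3.44%), and the AP-1 motif TGANTCA (7.81%) were found in none of the 5 windows. TATAAA (13.6% of promoters) occurred once each in Ly6c1, Ly6f and Ly6g6c. A match is a description of letters and no evidence of binding.

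All 11 listed Ly6 genes had a higher mean in AOM/DSS than in naive tissue, against 57.3% of all listed genes. Of the 9 with a mean above 0 in both groups, 8 were at least 2-fold higher, against 27.3% of the 7299 listed genes with such means, and Ly6m was the exception. The other 2, Ly6a2 and Ly6f, were listed at 0 in naive tissue, as were 500 of all listed genes (6.35%). The median fold of the 9 genes was 7.97 (log2 3.00), beside 1.30 (log2 0.38) over all listed genes with a fold. Folds ranged between 1.81 for Ly6m and 83.3 for Ly6d. Summed over the 11 genes, the means came to 2622 in AOM/DSS tissue and 558 in naive tissue, a ratio of 4.70.

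**Figure D1:**
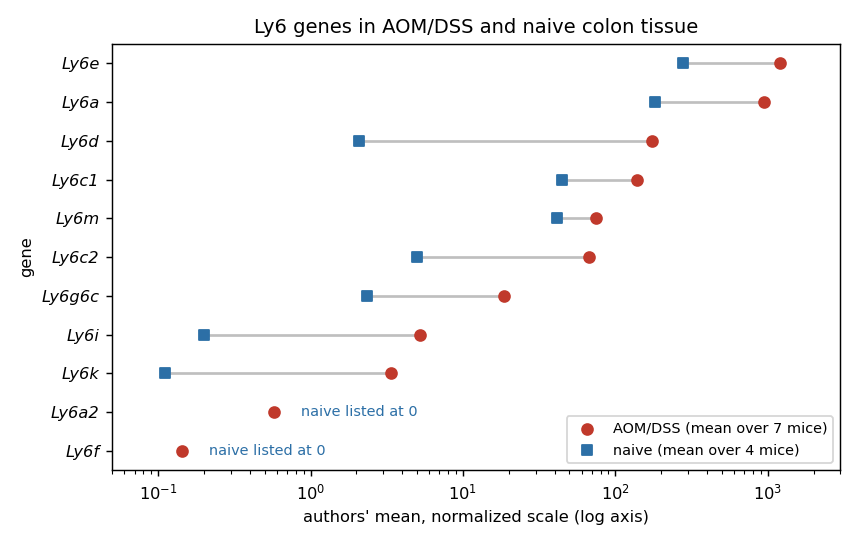
The authors' normalized means of the 11 listed Ly6 genes on a log axis, with AOM/DSS as red circles and naive as blue squares, joined by a grey line; the means carry no error bar because values per mouse were not in the table. Every circle lies right of its square, closest for Ly6m (74.8 and 41.4) and farthest apart for Ly6d (173 and 2.07), and Ly6a2 and Ly6f have no naive point.

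Ly6e and Ly6a, the most abundant members, encode the proteins long known as Sca-2 and Sca-1. Ly6e (chr15:74955025-74959904, plus strand, GRCm38), first described on thymocytes and induced by interferons, restricts the entry of coronaviruses into cells. Its mean was 1201 in AOM/DSS tissue and 279 in naive tissue, 4.30-fold higher (log2 2.10), and 48 listed genes had a higher AOM/DSS mean. Ly6a (chr15:74994877-74998031, minus strand) marks haematopoietic stem cells and is also expressed by endothelium and activated T cells. Its mean was 938 in AOM/DSS tissue and 182 in naive tissue, 5.15-fold higher (log2 2.36), with 74 listed genes above it in AOM/DSS. The order Ly6e above Ly6a was the same in both groups, with a ratio of 1.28 in AOM/DSS and 1.53 in naive tissue. Together they made up 81.6% of the summed Ly6 means in AOM/DSS and 82.8% in naive tissue, so that this sum mostly follows these genes. Their folds lay at percentiles 88.7 (Ly6a) and 86.8 (Ly6e) of all listed folds, below those of several scarcer members.

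Ly6d had the largest fold of the family. The gene (chr15:74762056-74763567, minus strand) encodes a surface protein of keratinocytes and other stratified epithelia and also marks early progenitors of the B lineage. Its mean was 173 in AOM/DSS tissue and 2.07 in naive tissue, 83.3-fold higher (log2 6.38). Only 71 listed genes had a larger fold, which puts it at percentile 99.0, and with 1 added to both means the fold was 56.5. Ly6d was the third most abundant Ly6 gene in AOM/DSS tissue and the seventh in naive tissue, and its share of the summed Ly6 means was 6.59% in AOM/DSS and 0.372% in naive tissue. The listed gene whose pair of means lay closest was Wif1, a secreted Wnt inhibitor (190.4 and 1.93 in AOM/DSS and naive tissue), 0.175 log2 units away. Krt14, a keratin of the basal layer of stratified epithelia, followed at 0.330 (215 and 2.21), and the transcription factor gene Prox1 at 0.432 (159 and 2.77). The distance rests on 2 group means.

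Other markers of stratified squamous epithelium were higher as well. Of 30 such markers including Ly6d, 25 were listed, all 25 had the higher mean in AOM/DSS, and 7 of them were listed at 0 in naive tissue. The shares over all listed genes were 57.3% higher and 6.35% at 0 in naive tissue. Without Ly6d, all 17 with a fold were at least 2-fold higher, beside 27.3% of all listed genes with a fold, and their median fold was 44.7. The listed means without Ly6d summed to 2818 in AOM/DSS and 238 in naive tissue. Krt13, a keratin of internal stratified epithelia, stood at 440.4 in AOM/DSS and 0.148 in naive tissue, and Krt10, a keratin of cornifying layers, at 385 and 11.5. Sfn, which encodes the epithelial adaptor stratifin, had 439.6 in AOM/DSS and 189 in naive tissue, so that it alone gives most of the naive sum. The 7 genes listed at 0 in naive tissue were Krt6a (216 in AOM/DSS), Krt6b (112), Calml3 (44.7), Sprr3 (30.7), Lypd3 (18.0), Dsg1a (0.935) and Ivl (0.753). Sprr1b, Sprr2a1, Perp, Serpinb5 and Krt1 were not listed. The part of such cells in the Ly6d level was not tested.

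Ly6c2 and Ly6c1 encode the antigens read together as Ly6C, which marks inflammatory monocytes. Ly6c2 (chr15:75108161-75112066, minus strand) is the form of monocytes and is also expressed by plasma cells and memory CD8 T cells, while Ly6c1 (chr15:75044018-75048920, minus strand) is a gene of endothelium. For Ly6c2 the mean was 67.3 in AOM/DSS and 5.01 in naive tissue, 13.4-fold higher (log2 3.75, percentile 95.3). For Ly6c1 it was 139 in AOM/DSS and 44.9 in naive tissue, 3.10-fold higher (log2 1.63). Ly6c1 was the more abundant gene in both groups, but its excess over Ly6c2 was 2.07-fold in AOM/DSS and 8.98-fold in naive tissue. Their sum was 207 in AOM/DSS and 49.96 in naive tissue, 4.14-fold higher. Another division of reads within the pair would leave this sum as it is only if the normalized means add up as reads do. Whether they do is not stated. Ly6c2 took 2.57% of the summed Ly6 means in AOM/DSS and 0.898% in naive tissue, while Ly6c1 took 5.32% in AOM/DSS and 8.06% in naive tissue.

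The split between these genes is uncertain. Over the last 300 bases of their transcripts, the part that 3′ libraries read, Ly6c1 and Ly6c2 were 98.0% identical in the GENCODE M21 annotation. Stretches of 50 bases were pooled over the ends of a gene's annotated transcripts, 1253 for Ly6c1 and 533 for Ly6c2. Of these, 114 occurred in both, 9.10% of the Ly6c1 pool and 21.4% of the Ly6c2 pool. Each pool is larger than a single end of 300 bases can hold, so these are not shares of a single end. Among the 55 pairs of listed members, 3 others shared any such stretch: Ly6a and Ly6c1 (26 stretches, 83.3% identical ends), Ly6i and Ly6a2 (18, 88.6%) and Ly6c2 and Ly6a2 (3, 85.8%). How reads that match more than 1 gene were counted was not stated by the study. Ly6e, Ly6d, Ly6m, Ly6g6c, Ly6k and Ly6f shared no such stretch with another listed member.

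Marker genes of the cells in which Ly6c2 and Ly6c1 are known were counted beside them. Over all listed genes, 57.3% were higher in AOM/DSS, and 27.3% of those with a fold were at least 2-fold higher. Of 16 monocyte markers including Ly6c2, 14 were listed, 12 higher and 2 lower in AOM/DSS, while Ccr2, the chemokine receptor that brings monocytes out of the bone marrow, and Plac8 were not listed. Without Ly6c2, 9 of 13 were at least 2-fold higher, with a median fold of 3.97, and their means summed to 1326 in AOM/DSS and 947 in naive tissue. Lyz2, the lysozyme of myeloid cells, stood at 534 in AOM/DSS and 232 in naive tissue, and Csf1r, the receptor for macrophage colony-stimulating factor, at 274 and 138. Fn1, fibronectin, had 380.1 in AOM/DSS and 499 in naive tissue. Of 18 endothelial markers including Ly6c1, 11 were listed, 10 higher and 1 lower in AOM/DSS. Without Ly6c1, 1 of 10 was at least 2-fold higher, a smaller share than over all listed genes with a fold. The median fold of these 10 was 1.56, and the sums were 369.7 in AOM/DSS and 252 in naive tissue. Pecam1, the adhesion molecule CD31, stood at 94.5 in AOM/DSS and 49.2 in naive tissue, Egfl7 at 49.6 and 22.8, and Plvap, a protein of endothelial fenestrae, at 46.2 and 32.4. Tek, Cldn5, Emcn, Esam, Sox17, Flt1 and Gpihbp1 were not listed. All 15 B lineage and T cell markers were listed and higher, 14 of 14 at least 2-fold, with a median fold of 11.1 and sums of 2001 in AOM/DSS and 264 in naive tissue. Jchain, the joining chain of secreted antibodies, stood at 1559.96 in AOM/DSS and 156 in naive tissue, Sdc1, which marks plasma cells and also epithelium, at 179.97 and 88.6, and Mzb1, a chaperone of antibody secretion, at 92.4 and 5.96. Cd8a, at 2.45 in AOM/DSS tissue, was at 0 in the naive column. The part of any of these cells in the Ly6c levels was not tested.

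Nearest to Ly6c2 by their means in AOM/DSS and naive tissue were Tgtp2, an interferon-induced GTPase, at 0.333 log2 units (65.8 and 6.30), Pou2af1, a B cell coactivator, at 0.347 (58.5 and 4.12), and Icam1, an adhesion molecule, at 0.366 (52.7 and 5.33). H2-Ab1, a class II antigen-presenting molecule, lay 0.0949 log2 units from Ly6a (998.6 in AOM/DSS and 186 in naive tissue), S100a11, a calcium-binding protein, 0.284 (881 and 219.6), and Gm43305 0.320 (871 and 225).

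**Figure D2:**
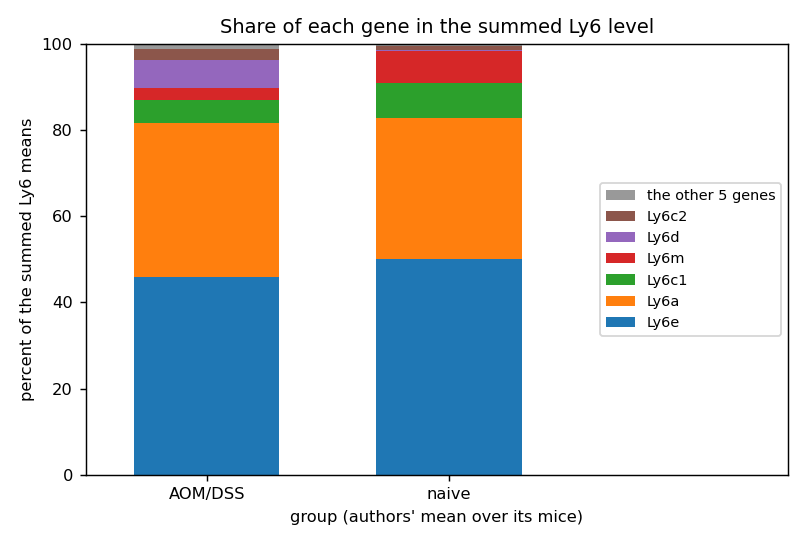
Share of each Ly6 gene in the summed authors' means of the family (percent), stacked in a bar for each group and drawn without error bars. Ly6e and Ly6a fill 81.6% of the AOM/DSS bar and 82.8% of the naive bar, while Ly6d takes 6.59% in AOM/DSS and 0.372% in naive tissue and Ly6m 2.85% in AOM/DSS and 7.43% in naive tissue.

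Of the remaining members, Ly6m (chr15:74878336-74881704, minus strand, formerly 2010109I03Rik) had 74.8 in AOM/DSS and 41.4 in naive tissue, 1.81-fold higher (log2 0.85), the smallest fold of the family. It was the fifth most abundant Ly6 gene in AOM/DSS and the fourth in naive tissue, with 2.85% of the AOM/DSS and 7.43% of the naive sum. Ly6g6c (chr17:35067325-35070048, plus strand), the single listed member outside chromosome 15, had 18.6 in AOM/DSS and 2.33 in naive tissue, 7.97-fold higher (log2 3.00). Ly6k (chr15:74796874-74799968, minus strand), a gene of the male germ line whose human counterpart is a tumor antigen, had 3.38 in AOM/DSS and 0.111 in naive tissue, 30.6-fold higher (log2 4.93). Ly6i (chr15:74979534-74983434, minus strand) had 5.26 in AOM/DSS and 0.201 in naive tissue, 26.2-fold higher (log2 4.71). These large folds rest on very low naive means: with 1 added to both means they were 3.94-fold for Ly6k and 5.21-fold for Ly6i. Ly6a2 (chr15:75131292-75135128, minus strand, formerly I830127L07Rik) had 0.577 and Ly6f (chr15:75268372-75272237, plus strand) 0.143 in AOM/DSS, and both were listed at 0 in naive tissue, so no fold is given.

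Ly6g, whose product is the usual surface marker of mouse neutrophils, was not listed, while other neutrophil genes were. Of 18 neutrophil markers, 12 were listed, all 12 with the higher mean in AOM/DSS, beside 57.3% of all listed genes. At least 2-fold higher were 10 of 10, beside 27.3% of all listed genes with a fold, and their median fold was 67.8. The listed means summed to 1189 in AOM/DSS and 13.1 in naive tissue. S100a8 and S100a9, the subunits of calprotectin, stood at 451 and 397 in AOM/DSS and at 1.50 and 1.08 in naive tissue, and Ltf, lactoferrin, at 176 in AOM/DSS and 0.214 in naive tissue. Ngp (3.31 in AOM/DSS) and Cxcr1 (0.535) were listed at 0 in naive tissue. Mmp8, Camp, Elane, Mpo and G0s2 were not listed either. The part of neutrophils, or of other cells, in the levels of these markers was not tested. The nearest listed genes on either side of Ly6g, Ly6a2 and Ly6f, had low AOM/DSS means of 0.577 and 0.143.

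The cluster of chromosome 15 was then followed gene by gene between Psca and Gpihbp1 (chr15:74714839-75598213, 883375 bases). It holds 29 protein-coding genes, 23 of them of the LY6/uPAR superfamily. Of these 23, 15 were listed, and all 15 had the higher mean in AOM/DSS, against 57.3% of all listed genes. Naive was listed at 0 for 6 of them, against 6.35% of all listed genes: Slurp1, Lypd2, Slurp2, Gml, Ly6a2 and Ly6f. The 15 are no separate set, since 10 are Ly6 genes counted above and the rest belong to the LY6/uPAR list below. Of the 6 genes of other families inside the span, 1 was listed, Them6, at 12.5 in AOM/DSS and 6.94 in naive tissue, 1.80-fold higher. High and low genes were interspersed along the cluster. Ly6i (5.26 in AOM/DSS) lies between Ly6e (1201) and Ly6a (938), and Ly6d (173) lies next to genes that were not listed, Lynx1 and Ly6g6g. Gml2, Ly6g, Ly6g2, Ly6l, Ly6h and Gpihbp1 were not listed either.

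**Figure D3:**
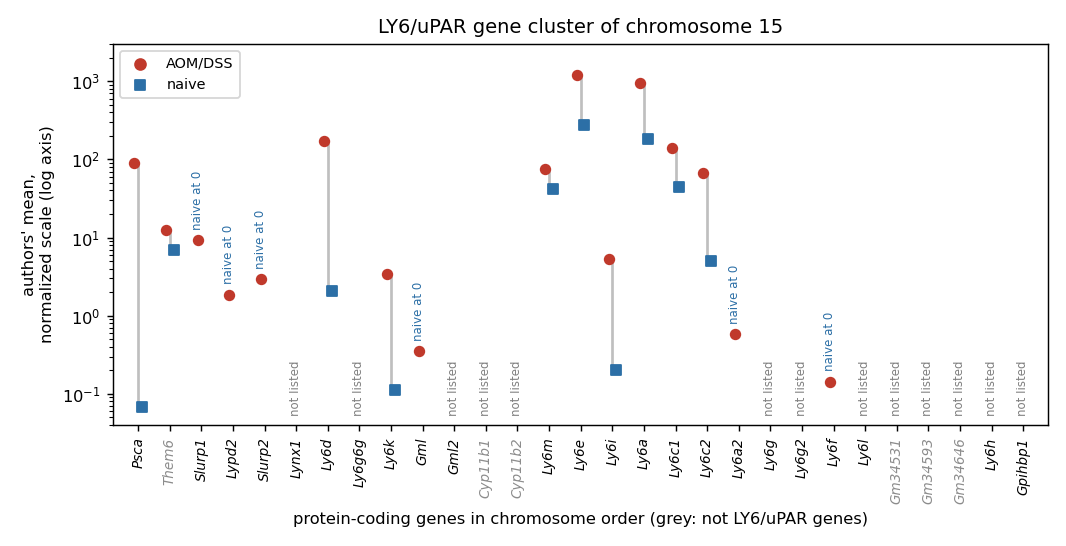
Authors' normalized means (log axis) of the 29 protein-coding genes between Psca and Gpihbp1 in chromosome order, with AOM/DSS as red circles left of naive as blue squares; a gene listed at 0 in naive tissue or not listed is marked in words, and grey names are genes outside the LY6/uPAR superfamily. The 15 listed superfamily genes all lie higher in AOM/DSS, with Ly6e (1201) and Ly6a (938) at the top and Ly6f (0.143) at the bottom.

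Other genes of the LY6/uPAR superfamily were read beside the Ly6 genes. Of a list of 30, 15 were listed, 14 higher and 1 lower in AOM/DSS, beside 57.3% higher among all listed genes. Of the 14, 8 were listed at 0 in naive tissue, beside 6.35% of all listed genes. Of the 7 with a fold, 6 were at least 2-fold higher, beside 27.3% of all listed genes with a fold, and the median fold was 2.99. Psca, prostate stem cell antigen, stood at 90.8 in AOM/DSS and 0.0670 in naive tissue, 1356-fold higher on a naive mean close to 0. Plaur, the urokinase receptor, had 28.2 in AOM/DSS and 5.24 in naive tissue (5.38-fold). Lypd10 had 198 in AOM/DSS and 66.2 in naive tissue (2.99-fold), and Cd177, a neutrophil surface glycoprotein, had 129.9 and 46.7 (2.78-fold). With these means, Cd177 was the listed gene closest to Ly6c1, at 0.116 log2 units. The naive mean of Cd177 alone was above the naive sum of the 12 listed neutrophil markers (13.1). Lypd6b had 4.48 in AOM/DSS and 0.560 in naive tissue, and Cd59b had 0.676 and 0.304 (2.23-fold). The lower gene was Cd59a, which encodes an inhibitor of the complement membrane attack complex, at 40.3 in AOM/DSS and 88.7 in naive tissue (0.454-fold).

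The 8 superfamily genes listed at 0 in naive tissue reached AOM/DSS means of 18.0 (Lypd3, a gene of stratified epithelium), 9.25 (Slurp1, which encodes a protein secreted by keratinocytes), 8.72 (Lypd5), 2.93 (Slurp2), 1.86 (Lypd2), 1.20 (Pinlyp), 0.352 (Gml) and 0.169 (Lypd11). The 15 genes not listed include Lypd8, which encodes a colonocyte protein that keeps flagellated bacteria off the epithelium, and the sperm genes Tex101 and Spaca4. Enzymes that build, attach or remodel the GPI anchor were mostly not listed. Of 19, 5 were listed, 3 higher and 2 lower in AOM/DSS, none of them by 2-fold, and their median fold was 1.23. Among all listed genes, 57.3% were higher, and 27.3% of those with a fold were at least 2-fold higher. Gpaa1, a subunit of the transamidase that attaches the anchor, had 70.6 in AOM/DSS and 43.5 in naive tissue, and Pgap3, which remodels its lipid, had 8.13 and 14.6. Pigb (61.1 in AOM/DSS and 49.6 in naive tissue), Pgap1 (21.4 and 11.5) and Dpm1 (25.8 and 35.2) made up the rest.

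Ly6a and Ly6e are interferon-induced genes of many cell types, and the interferon-induced list was almost wholly listed. Of 34 genes, 32 were listed, all 32 higher in AOM/DSS (57.3% of all listed genes) and 29 at least 2-fold (27.3% of those with a fold). Their median fold was 5.56, beside 5.15 for Ly6a and 4.30 for Ly6e. The sums were 3858 in AOM/DSS and 773 in naive tissue. Ifitm3, an antiviral membrane protein, stood at 1560.4 in AOM/DSS and 213.5 in naive tissue, the transcription factor gene Irf1 at 429 and 168, and the immunoproteasome subunit gene Psmb8 at 248 and 61.2. Oas2 and Mx2 were not listed. The part of interferon in the Ly6a and Ly6e levels was not tested.

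Markers of regenerating colon epithelium, among which Ly6a is counted, gave a mixed picture. Of 17 including Ly6a, 13 were listed, 10 higher and 3 lower in AOM/DSS. The shares over all listed genes were 57.3% higher and, of those with a fold, 27.3% at least 2-fold higher. Without Ly6a, 7 of 11 were at least 2-fold higher, with a median fold of 2.24, but the sums were 6809 in AOM/DSS and 7474 in naive tissue, since S100a6, also abundant in other tissues, had 4867 in AOM/DSS and 6254 in naive tissue. Clu, clusterin, had 327 in AOM/DSS and 41.8 in naive tissue, and S100a14 had 556 and 390.3. Anxa10, Areg, Ccn1 and Ccn2 were not listed. The part of regenerating epithelium in the Ly6a level was not tested.

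Markers of smooth muscle and most markers of mature colonocytes were lower in AOM/DSS tissue. All 12 smooth muscle markers were listed, and all 12 were at least 2-fold lower in AOM/DSS (median fold 0.380), with sums of 6759 in AOM/DSS and 17679 in naive tissue. Acta2 stood at 1690 in AOM/DSS and 3546 in naive tissue, Mylk at 1160 and 3288, and Des, desmin, at 809.7 and 2504. Of 12 colonocyte markers, 10 were listed, 8 lower and 2 higher, while 57.3% of all listed genes were higher. Their median fold was 0.141, and the sums were 788 in AOM/DSS and 5805 in naive tissue. The 2 higher ones were Slc9a3, at 7.73 in AOM/DSS and 0.181 in naive tissue (42.8-fold), and Guca2b, at 17.3 and 6.28 (2.75-fold). Muc3, a membrane mucin, had 439 in AOM/DSS and 2318 in naive tissue, Car1, a carbonic anhydrase, 108 and 1236, and Guca2a, guanylin, 83.0 and 272. The part of muscle and colonocytes in the Ly6 levels was not tested.

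**Figure D4:**
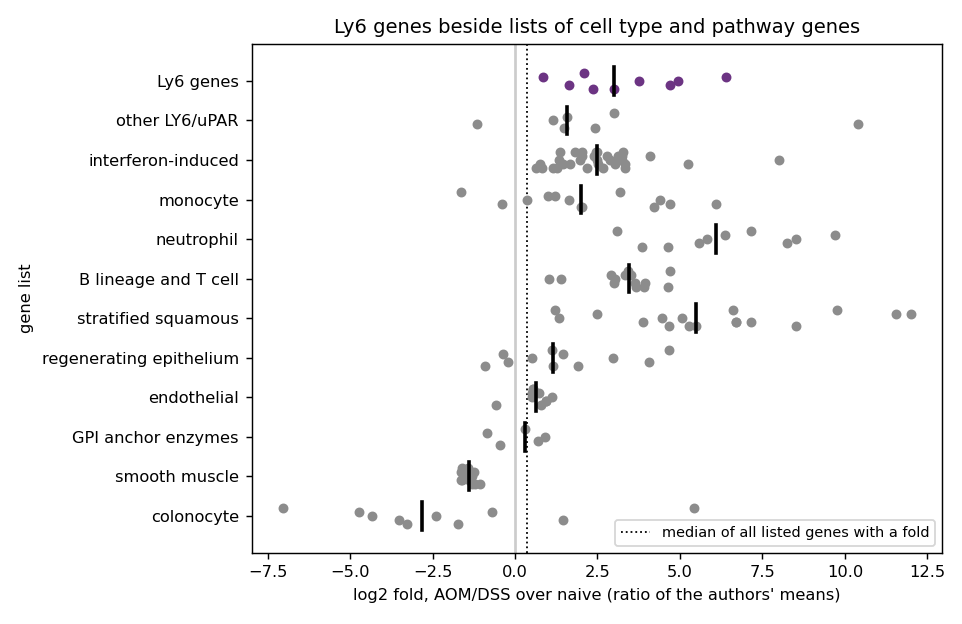
Log2 fold (AOM/DSS over naive, from the authors' means) of the 9 Ly6 genes with a fold, in purple, and of the other genes of each list with a fold, in grey and without any Ly6 gene; the black bar is the median of a row and the dotted line the median over all listed genes (0.38). The Ly6 median of 3.00 lies above the dotted line, beside higher medians for neutrophil, squamous and B lineage and T cell markers and negative ones for smooth muscle and colonocyte markers.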

How the data were processed

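Total RNA of tumor tissue (AOM/DSS) or colon tissue (naive) from 11 mice was made into 3′ libraries with the QuantSeq kit. The submitters' processing notes name cutadapt, STAR and Partek and the build mm10. Per the study's methods the authors trimmed and aligned the reads, counted them over the Ensembl annotation, normalized these counts and ran a gene-specific analysis between the groups. Which normalization was used is not given in the sources used here. A single deposited table gives 2 mean signal values per gene on the authors' normalized scale and no read totals, so the depth reached per sample is unknown beyond the nominal one in the study's methods. Its deposited p-value column was read only to check that no listed p exceeds 0.05. Columns holding the authors' FDR and fold change were not used.

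Folds were ratios of the authors' means in Python 3.11.15 with pandas 2.3.3 and numpy 2.4.6, checked on simulated data. A mean of 0.0001, taken as any mean under 0.0002, stands for 0. Pseudocounts of 1 and 0.1, filters on the average mean of 1 and 10, fold limits of 1.5 and 4, and 2 scalings were tried. Sequences were aligned with Biopython 1.88. Promoters and gene coordinates are RefSeq's (GRCm38.p6), and gene strands and transcripts those of GENCODE M21 (GRCm38, the build mm10 names). Named were every listed Ly6 and LY6/uPAR gene, per marker list the 3 listed genes with the highest AOM/DSS mean and those listed at 0, and the 3 genes nearest in both log2 means. One gene that this rule names is not reported here. The Ly6 genes and all lists were chosen with earlier results of these data known.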

Additional observations from a re-analysis of the deposited data

How the results depend on the processing

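All 36 alternatives for the folds of 9 Ly6 genes (1 or 0.1 added to both means, folds centred on the median of all listed genes, and both groups scaled to the same sum) kept the direction, and 3 moved the fold by over 1.5 times. Ly6i was 5.21-fold higher with 1 added, and Ly6k 3.94-fold with 1 added and 16.5-fold with 0.1 added. Centring lowered each log2 fold by 0.38, which left 1.39-fold for Ly6m and 64.2-fold for Ly6d, while scaling to the same sum moved them by 0.02. The count of Ly6 genes at least 2-fold higher was 8 of 9, beside 27.3% over all listed genes with a fold. With 1 added to both means it was 8 of 11, beside 20.9% over all listed genes. It was 6 with an average mean of at least 10 (beside 15.8%), a filter that Ly6i and Ly6k of the 9 did not pass. At a limit of 4-fold it was 7 (beside 14.2%), and at 1.5-fold it was 9 (beside 40.3%). For the other LY6/uPAR genes the count was 6 of 7 (beside 27.3%). It was 11 of 15 with 1 added to both means (beside 20.9%), since genes listed at 0 in naive tissue then have a fold. No paired analysis was possible because the deposited columns are group means with no value per sample, and leaving out each replicate in turn was not run for the same reason. With no read totals, no detection limit could be set for the low means of Ly6i, Ly6k, Ly6a2 and Ly6f.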
